A study of Mus musculus with 6 samples.

Results

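Bgn and Timp1 are a pair of X-linked mouse genes whose products are secreted into the extracellular matrix, and they were chosen by name, as 2 of the 372 genes listed in both deposited tables. Chosen with earlier results of these data known, they are followed here across days 0, 4 and 7 of differentiation, with 2 libraries per day and 6 in all. The cells were a female mouse embryonic stem cell line, 16.7 TST, with the genotype label WT; TST is not explained. Day 0 cells were undifferentiated and were grown with serum and LIF on irradiated mouse embryonic fibroblast (MEF) feeders. Day 4 and day 7 cells had been separated from attached feeders and cultured without LIF as embryoid bodies, which were moved to gelatinized plates on day 4. No treatment or mutation separates the groups, and 1 cell line stands for them all. Nothing says that the replicates were grown as separate cultures, and p-values here cover at most the spread between libraries, which may be technical. In the allele share tests all genes share 1 spread, so the p-value of a gene does not measure its own spread between libraries.

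Biglycan, the product of Bgn, is a small leucine-rich proteoglycan that carries glycosaminoglycan chains and binds collagen fibrils, and it is abundant in bone, tendon and other connective tissue. TIMP1 is a secreted inhibitor of matrix metalloproteinases, the enzymes that cut matrix proteins. Fibroblasts are a known source of both proteins. In female cells 1 of the 2 X chromosomes is silenced during differentiation, so an X-linked gene that is read from both alleles in stem cells is later read mainly from the active one. The deposited tables name the alleles cas and mus, with headers that place cas on the active X (Xa) and mus on the inactive X (Xi).

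Bgn (ENSMUSG00000031375.17) lies on chrX:73483602-73495933 of GRCm38, plus strand, and its transcript Bgn-201 has 8 exons. Timp1 (ENSMUSG00000001131.11) lies on chrX:20870166-20874735, also plus strand, with 6 exons in Timp1-202. Timp1 sits wholly inside Syn1, the synapsin I gene, which is transcribed from the opposite strand, and 0 exons of the pair overlap. Whether the authors' counting used strand is not given in the sources used here, so intronic Syn1 reads could have been counted for Timp1. Because both genes lost RNA by day 4, the 250 bases before each start site are printed from RefSeq's GRCm38.p6 table, plus strand. Capitals mark GC boxes (GGGCGG, or CCGCCC on the other strand) and ETS-type motifs (AGGAAG or CTTCCT).
Bgn, chrX:73483351-73483600: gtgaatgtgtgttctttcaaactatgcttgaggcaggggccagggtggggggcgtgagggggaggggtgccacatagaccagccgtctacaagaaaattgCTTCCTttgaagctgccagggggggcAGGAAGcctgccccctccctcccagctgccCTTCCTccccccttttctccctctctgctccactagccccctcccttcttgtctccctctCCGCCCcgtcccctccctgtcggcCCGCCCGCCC
Timp1, chrX:20869916-20870165: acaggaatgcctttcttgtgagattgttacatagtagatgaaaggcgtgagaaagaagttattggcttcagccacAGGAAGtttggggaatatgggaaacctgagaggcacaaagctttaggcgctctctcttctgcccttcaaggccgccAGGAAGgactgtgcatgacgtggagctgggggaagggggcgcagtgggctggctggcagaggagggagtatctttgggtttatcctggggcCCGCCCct

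Bgn had 3 GC boxes, of which those nearest the start overlap, and Timp1 had 1. A GC box was present on either strand in 32.7% of the 32851 promoter windows of that length. Bgn had 3 ETS-type motifs and Timp1 had 2, against 29.5% of windows with any. Neither window held TATAAA (12.4% of windows) or the AP-1 motif TGANTCA (6.75%). The windows held 7 and 6 CpG dinucleotides, beside a median of 6 over all windows. These matches are a description of the letters and show no binding.

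Reads that could be assigned to an allele summed to between 69742 and 160218.5 per library over all 372 genes, and the median gene had between 78.5 and 230 of them. The median gene had a mus share of 48.1% and 48.2% at day 0, 19.7% and 19.9% at day 4, and 4.08% and 4.61% at day 7. All 372 listed genes were X-linked, so 0 of 10 autosomal fibroblast markers and 0 of 6 autosomal stem cell markers on the lists could be read. The X-linked stem cell list, 8 of 8 measured (Nr0b1, Dusp9, Tfe3, Zfp185, Eras, Rhox6, Rhox9 and Tex11), had a summed TPM of 1709 and 1707 at day 0, 560 and 577 at day 4, and 474 and 468 at day 7. TPM is a transcript abundance per length and per library total. By day 7, limma's trend method called 7 of the 8 lower in TPM than at day 0 and Zfp185 higher. Over all genes 54.0% were called lower and 30.9% higher. From day 4 to day 7 Dusp9 and Zfp185 were called higher, beside 25.5% of all genes. Eras, Nr0b1, Rhox6, Rhox9 and Tex11 were called lower. The median change of the 8 was -2.01 on the log2(TPM + 1) scale, beside -0.50 over all genes.

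Bgn went from nearly all mus reads at day 0 to mainly cas reads at day 7. At day 0 its allele-specific reads were 377.5 mus and 0 cas in replicate 1, and 445 mus and 1 cas in replicate 2. At day 4 replicate 1 held 5 mus and 2 cas reads and replicate 2 held 7 mus and 3 cas reads. At day 7 replicate 1 held 3 mus and 70.5 cas reads and replicate 2 held 3 mus and 39.5 cas reads. The day 0 libraries were therefore nearly all mus, the day 4 libraries almost empty, and the day 7 libraries mostly cas, with no overlap between day 0 and day 7 for either allele.

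Timp1 was read from both alleles at day 0 and from cas at day 7. At day 0 it had 73.5 mus and 28 cas reads in replicate 1, and 91 mus and 35 cas reads in replicate 2. At day 4 it had 25 mus and 38 cas reads in replicate 1, and 36 mus and 38.5 cas reads in replicate 2. At day 7 it had 1 mus and 27 cas reads in replicate 1, and 1.5 mus and 28.5 cas reads in replicate 2. The mus reads fell at each step without overlap between days, while the cas reads stayed between 27 and 38.5 in libraries of unequal depth.

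**Figure D1:**
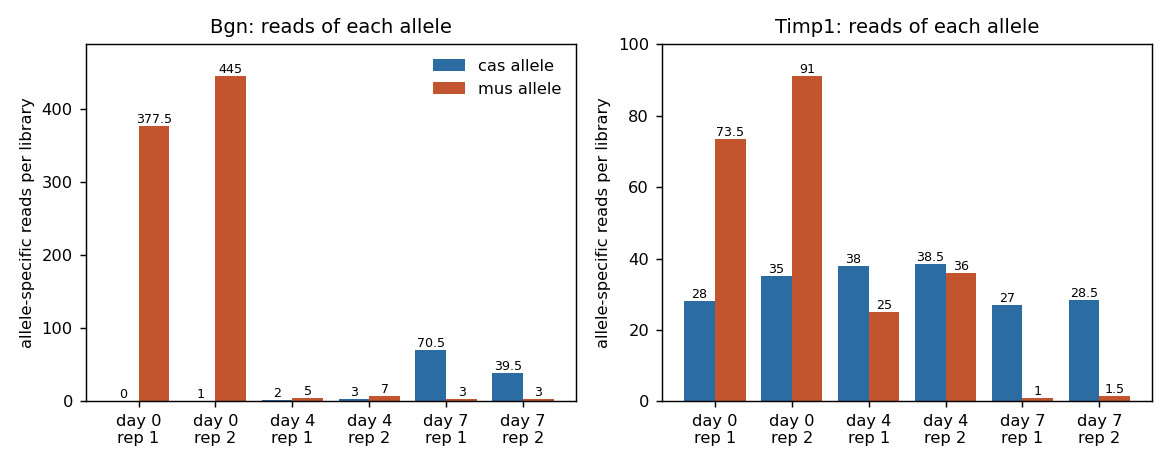
Allele-specific reads of Bgn (left) and Timp1 (right) in each of the 6 libraries, with cas in blue and mus in red and the read number above each bar. Bgn goes from 377.5 and 445 mus reads at day 0 to 70.5 and 39.5 cas reads at day 7, whereas Timp1 keeps 27 to 38.5 cas reads in every library.

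The day 0 comparison asks whether the alleles were read equally before differentiation. The mus share of Bgn was 100% in replicate 1 (Wilson 95% interval 99.0% to 100%) and 99.8% in replicate 2 (98.7% to 99.96%), a mean of 99.9% ± 0.159 (SD, n = 2). The 0 cas reads of replicate 1 allow a cas share of up to 0.795%. Timp1 had 72.4% (63.2% to 80.3%) and 72.2% (63.8% to 79.3%), a mean of 72.3% ± 0.135. Intervals and limits cover counting error only, since reads are not independent molecules. By edgeR's quasi-likelihood test, adjusted by Benjamini-Hochberg over 372 genes, the log2 odds of mus to cas were 9.36 ± 0.317 (SE) for Bgn (adjusted p = 6.74e-140) and 1.39 ± 0.244 for Timp1 (adjusted p = 2.20e-07), higher in both libraries. Here and below, the SE of an edgeR value is its absolute size divided by the square root of the test's F. This is not a standard error of the fitted value, and the size for Bgn rests on a single cas read. Of all genes, 9.68% were called with more mus than cas reads at day 0.

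Among the 369 genes with a share in both day 0 libraries, Bgn had the highest mean mus share and Timp1 ranked 8. Mean shares above 95% were found at 3 genes, Bgn, Xist and Col4a5, and above 70% at 10 genes. Xist is the noncoding RNA that coats the inactive X, and Col4a5 encodes a basement membrane collagen chain. Col4a5 had 40 mus and 0 cas reads in day 0 replicate 1 and 43 mus and 1.5 cas reads in replicate 2, so its share rested on fewer reads than that of Bgn, a mean of 42.2 against 412 reads per library. Shares above 95% in both day 0 libraries and below 10% in both day 7 libraries were found at 2 genes, Bgn and Col4a5, limits that were chosen after the values were seen.

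By day 4 the mus share of Bgn was 71.4% of 7 reads in replicate 1 (Wilson interval 35.9% to 91.8%) and 70% of 10 reads in replicate 2 (39.7% to 89.2%). That mean of 70.7% ± 1.01 was not called different from an equal share in edgeR's quasi-likelihood test (adjusted p = 0.115), and at 17 reads in total a difference was hardly detectable. Compared with day 0, the log2 odds fell by 8.14 ± 1.48 (SE, adjusted p = 7.92e-08, lower in both libraries). This size depends on the single cas read at day 0. The share of Timp1 was 39.7% (28.5% to 52.0%) and 48.3% (37.6% to 59.8%), a mean of 44.0% ± 6.11, and was not called different from an equal share either (adjusted p = 0.285), whereas 93.5% of genes were called below one. Its log2 odds fell by 1.70 ± 0.38 from day 0 (adjusted p = 1.45e-05, lower in both libraries).

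A fall in mus share was called at 87.9% of genes by day 4, and the median log2 odds change over all genes was -1.81. Relative to each library's median gene, the odds of Bgn fell by 6.19 ± 1.40 (SE, adjusted p = 5.96e-05, edgeR's quasi-likelihood test). Those of Timp1 changed by 0.18 ± 0.38 on that scale (adjusted p = 0.763), so its fall by day 4 was not distinguishable from that of the median gene. At day 4 the mean mus share ranked 2 for Bgn and 14 for Timp1 from the highest.

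At day 7 the mus share of Bgn was 4.08% (Wilson interval 1.41% to 11.4%) and 7.06% (2.40% to 18.6%), a mean of 5.57% ± 2.11. That of Timp1 was 3.57% (0.633% to 17.7%) and 5% (1.85% to 21.3%), a mean of 4.29% ± 1.01. Wilson intervals here and above are of counts rounded to whole reads, so that of Timp1 in replicate 2 belongs to a higher share than 5%. Both genes had fewer mus than cas reads, with log2 odds of -4.14 ± 0.42 (SE, adjusted p = 1.61e-21) for Bgn and -4.09 ± 0.63 (adjusted p = 1.51e-10) for Timp1 in edgeR's quasi-likelihood test. Such a call was made at 92.2% of genes. Relative to each library's median gene neither gene stood apart at day 7, with adjusted p = 0.863 for Bgn and 0.893 for Timp1.

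From day 0 to day 7 the log2 odds of Bgn fell by 13.5 ± 0.59 (SE, adjusted p = 1.21e-93, edgeR's quasi-likelihood test), the largest of the 372 changes, and those of Timp1 by 5.47 ± 0.65 (adjusted p = 3.69e-16). From day 4 to day 7 they fell by 5.36 ± 0.94 (adjusted p = 5.75e-08) for Bgn and 3.77 ± 0.74 (adjusted p = 1.19e-06) for Timp1, lower in both libraries each time. The size and rank of the Bgn change from day 0 to day 7 depend on the single cas read at day 0. Col4a5 was near it, with a change of -12.2. Falls were called at 89.8% of genes from day 0 to day 7 and at 68.3% from day 4 to day 7. Relative to the median gene the fall of Bgn was still called from day 0 to day 7 (9.50 ± 0.72, adjusted p = 2.76e-35) and from day 4 to day 7 (3.31 ± 0.95, adjusted p = 0.00509). For Timp1 neither was, with a log2 odds change of -1.66 ± 0.86 (adjusted p = 0.142) and -1.84 ± 0.87 (adjusted p = 0.138).

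**Figure D2:**
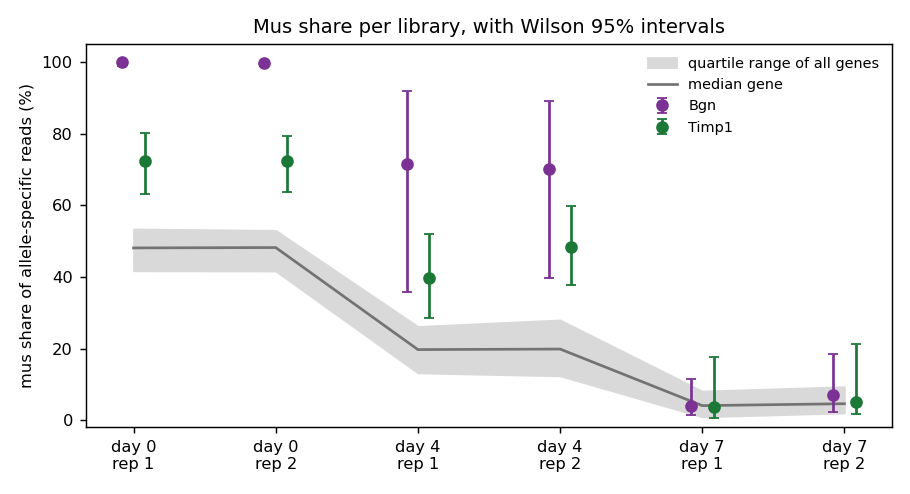
Mus share of allele-specific reads (y axis, percent) in each library (x axis) for Bgn in purple and Timp1 in green with Wilson 95% intervals, over the median gene (grey line) and the quartile range of all genes (grey band). Both genes lie above the band at days 0 and 4, and both lie inside it at day 7, at 3.57% to 7.06%.

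Total RNA of Bgn fell almost to nothing by day 4 and came back in part by day 7. Its TPM was 83.8 and 97.9 at day 0, 1.57 and 2.22 at day 4, and 28.9 and 26.5 at day 7. From high to low the order was day 0, day 7 and day 4, with no overlap. The mean of 90.8 ± 10.02 (SD, n = 2) at day 0 was 48.0-fold higher than the 1.89 ± 0.46 of day 4 and 3.28-fold higher than the 27.7 ± 1.70 of day 7. By limma's trend method on log2(TPM + 1), which understates the change of low values, Bgn fell by 4.99 ± 0.125 (SE) by day 4 (adjusted p = 8.38e-08), the largest fall of the 372 genes. It was 1.68 ± 0.125 lower at day 7 than at day 0 on that log2 scale (adjusted p = 6.93e-06), and rose by 3.32 ± 0.125 from day 4 to day 7 (adjusted p = 1.89e-07). Limma called 40.6% of genes lower at day 4 than at day 0, 54.0% lower at day 7 than at day 0, and 25.5% higher at day 7 than at day 4.

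Timp1 followed the same order of days over a smaller range. Its TPM was 188 and 183 at day 0, 42.1 and 47.4 at day 4, and 59.8 and 57.9 at day 7, with no overlap between days. The day 0 mean of 185 ± 3.62 was 4.14-fold that of day 4 (44.7 ± 3.69) and 3.15-fold that of day 7 (58.8 ± 1.33). On the log2(TPM + 1) scale Timp1 fell by 2.03 ± 0.068 (SE) by day 4 (adjusted p = 3.17e-07, limma) and ranked 9 among the falls. It was 1.64 ± 0.068 lower at day 7 than at day 0 (adjusted p = 2.44e-07). The rise of 0.39 ± 0.068 from day 4 to day 7 (adjusted p = 0.000993, limma) was lost when the summed allele-specific reads were tested with edgeR's quasi-likelihood test (0.26 ± 0.23, adjusted p = 0.313), so days 4 and 7 are not reliably ordered for Timp1. In that test the fall by day 4 was also smaller for Timp1, at -1.29 ± 0.18, and larger for Bgn, at -6.12 ± 0.25.

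A property of the deposited TPM limits these tests. Across genes, replicate differences in log2 TPM at day 7 were an exact linear function of those at days 0 and 4 (R squared of 1, against 0.00892 for allele-specific reads), and the day 7 libraries lay closer in TPM than in reads, so adjusted p-values of TPM may be too small. Bgn at day 7, for example, had 73.5 and 42.5 allele-specific reads beside TPM of 28.9 and 26.5.

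Dividing TPM by the allele shares gives a level per allele, on the assumption that reads without a variant divide as the others do. For Bgn the mus level was 83.8 and 97.7 TPM at day 0, 1.12 and 1.55 at day 4, and 1.18 and 1.87 at day 7. Its cas level was 0 and 0.220 TPM at day 0, 0.448 and 0.665 at day 4, and 27.7 and 24.6 at day 7. Nearly all the RNA lost by day 4 was thus mus, and nearly all the RNA gained by day 7 was cas. On the log2(TPM + 1) scale the mus level fell by 5.30 ± 0.22 (SE) by day 4 (adjusted p = 3.36e-05, limma over 357 genes with a share in every library), and from day 4 to day 7 it changed by 0.10 ± 0.22 (adjusted p = 0.675, 95% interval -0.44 to 0.65). The cas level rose by 4.13 ± 0.15 from day 4 to day 7 (adjusted p = 1.11e-05) and was 4.62 ± 0.15 above day 0 (adjusted p = 3.53e-06, beside a rise called at 58.0% of genes). Limma called 73.1% of genes lower in mus level by day 4 and 33.3% higher in cas level from day 4 to day 7.

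The cas gain of Bgn can be put as reads. Over both libraries cas reads numbered 1 at day 0, 5 at day 4 and 110 at day 7, of 238196.5, 320221 and 140935.5 allele-specific reads in all. Per allele-specific read of the listed X-linked genes, day 7 had 186-fold more than day 0. The counting interval (exact, 95%) ran from 32.7 to 7409. Day 7 had 50-fold more than day 4 (20.8 to 157). Between day 0 and day 4 the ratio was 3.72, with an interval from 0.416 to 176, so no change was detectable in the reads. The corresponding limma rise in cas TPM, 0.49 ± 0.15 (adjusted p = 0.0247), of a kind called at 67.2% of genes, was lost in edgeR on cas reads (adjusted p = 0.342), at a pseudocount of 5 (0.138) and without day 0 replicate 1 (0.0791) or day 4 replicate 2 (0.12).

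For Timp1 the mus level was 135.9 and 131.9 TPM at day 0, 16.7 and 22.9 at day 4, and 2.14 and 2.90 at day 7. Its cas level was 51.8 and 50.7 TPM at day 0, 25.4 and 24.5 at day 4, and 57.7 and 55.0 at day 7. Thus the mus level fell at both steps, while the cas level was lowest at day 4 and was at day 7 close to where it began. On the log2(TPM + 1) scale the mus level fell by 2.71 ± 0.21 (SE, adjusted p = 0.000281, limma) by day 4 and by 2.56 ± 0.21 from day 4 to day 7 (adjusted p = 7.98e-05), the latter called at 82.4% of genes. The cas level fell by 1.01 ± 0.062 by day 4 (adjusted p = 3.90e-05, limma), a call made in that direction at 11.8% of genes, where the median gene rose by 0.61. Between day 0 and day 7 the cas level differed by 0.13 ± 0.062 (adjusted p = 0.0878), and the 95% interval of that difference ran from -0.02 to 0.29.

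The cas allele of Timp1 looked different in reads. Per allele-specific read sequenced, cas reads at day 4 were 0.897-fold those of day 0 (exact 95% interval 0.634 to 1.27), and edgeR's quasi-likelihood test on cas reads did not call the fall (-0.28 ± 0.28, adjusted p = 0.388). At day 7 they were 1.5-fold those of day 0 (1.03 to 2.19), which edgeR called (0.75 ± 0.30, adjusted p = 0.0313). The rise from day 4 to day 7 was called in both measures, at 1.14 ± 0.062 in TPM (adjusted p = 3.22e-05, limma) and 1.03 ± 0.29 in reads (adjusted p = 0.00483, edgeR's quasi-likelihood test). Reads are taken relative to the other X-linked genes of the table, whose TPM summed to 3.12% of the full total in day 0 replicate 1 and 2.17% in day 7 replicate 2.

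**Figure D3:**
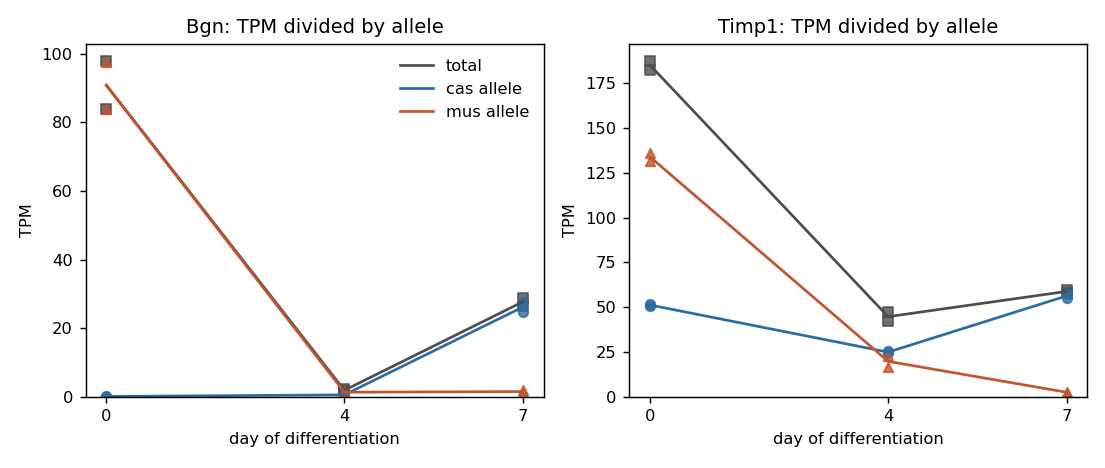
TPM (y axis) of Bgn (left) and Timp1 (right) by day, in total (grey) and divided into cas (blue) and mus (red) by the allele shares; points are libraries and lines join day means. The mus level of Bgn drops from 90.7 to 1.34 TPM by day 4 and its cas level appears at day 7 at 26.2 TPM, whereas the cas level of Timp1 goes from 51.3 through 24.9 to 56.3 TPM.

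Day 0 cultures held feeder fibroblasts, whose strain the labels do not give, and feeders were removed before differentiation. Of 8 X-linked genes listed as rich in fibroblasts besides Bgn and Timp1, 6 were measured, namely Col4a5, Col4a6, Fhl1, Flna, Msn and Plp2. Their summed TPM was 855 and 833 at day 0, 777 and 812 at day 4, and 960 and 953 at day 7, lower at day 4 than at day 0 and highest at day 7, with no overlap between days. By day 4 limma called Msn and Plp2 lower in TPM and Col4a6 and Fhl1 higher, while Col4a5 and Flna did not pass, beside 40.6% of all genes lower and 41.4% higher. By day 7 limma called Col4a5, Col4a6 and Fhl1 higher than at day 0 and Plp2 lower. Of all genes, 30.9% were called higher and 54.0% lower. Col4a6 went from 0.585 and 0.322 TPM at day 0 to 77.3 and 79.0 at day 7. Col4a5 reached 59.9 and 61.2 TPM at day 7. The summed mus share of the 6 was 55.1% and 55.2% at day 0, above the 48.6% of all genes in both libraries. Flna supplied 4811.5 and 5037 of the 6920.5 and 7499 reads behind that share. At day 0, 4 of the 6 (Col4a5, Flna, Msn and Plp2) were called with more mus reads, beside 9.68% of all genes called so. Col4a6 and Fhl1 were not called in either direction. The median log2 odds of the 6 were 0.55, beside -0.11 over all genes. Plp2, which encodes a membrane proteolipid, had 64.8% and 64.7% mus reads and a TPM of 218 and 231. Flna, an actin crosslinker, had 54.3% and 53.6% at 385 and 350 TPM. Col4a5 had 100% and 96.6% at 5.20 and 4.93 TPM. Msn had 52.4% and 53.9% mus reads at day 0. Fhl1, which was not called, had 45.3% and 52.0%, on either side of an equal share. Col4a6, also not called, had only 8 and 6.5 reads, so its share was poorly measured. The part of feeder RNA in the levels and shares of Bgn and Timp1 at day 0 was not tested, and in bulk RNA fewer cells of a type and less RNA per cell cannot be told apart. Feeder removal, withdrawal of LIF and differentiation all came between day 0 and day 4. Their parts in the changes from day 0 cannot be told apart.

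**Figure D4:**
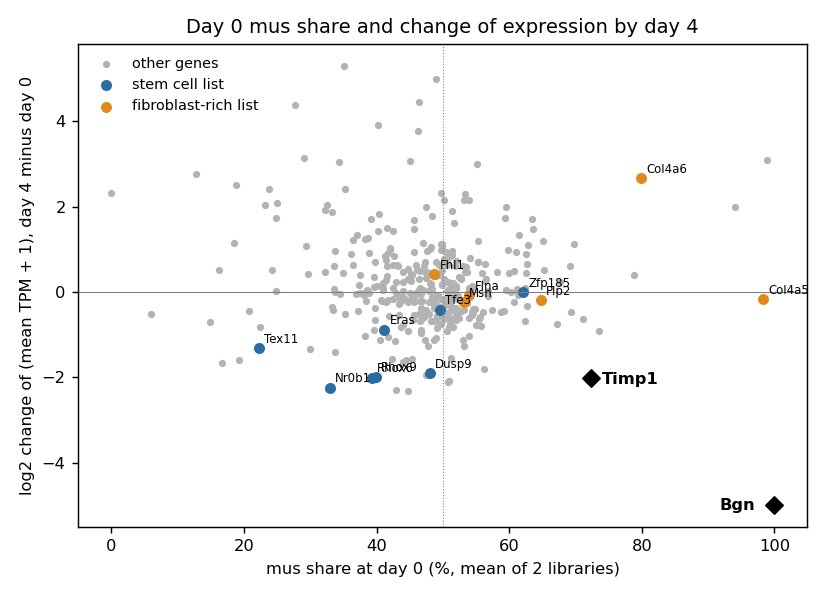
Each point is a gene, with its mean mus share at day 0 (x axis, percent) against its change from day 0 to day 4 in log2 of mean TPM plus 1 (y axis). Bgn and Timp1 (black diamonds) lie at a high mus share and a large fall. In mus share they lie above the stem cell list (blue), whose 7 members called lower lie at 22.2% to 49.5% mus. In the change, Timp1 lies between the stem cell genes Dusp9 and Nr0b1. The fibroblast-rich list (orange) lies apart from Bgn and Timp1 in the change. Its members Col4a5, at 98.3%, and Col4a6, on 8 and 6.5 reads, reach their range of mus share, and Fhl1, Flna, Msn and Plp2 lie below it.

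Of the 6 measured matrix genes of the X chromosome, Bgn and Timp1 were called lower in TPM by day 4, not a larger share than the 40.6% of all genes. A rise in TPM from day 4 to day 7 was called for most of those measured. Of 13 X-linked genes for secreted or cell-surface matrix proteins, 6 were measured, and Bgn and Timp1 were the 2 members that limma called lower in TPM by day 4. Col4a6, the collagen chain gene next to Col4a5, rose from 0.585 and 0.322 to 8.81 and 7.67 TPM, and Col4a5 and the heparan sulfate proteoglycan genes Gpc3 and Gpc4 did not pass. By day 7, Bgn, Timp1 and Gpc4 were lower than at day 0 and Col4a5, Col4a6 and Gpc3 higher. Of all genes, 41.4% were called higher and 40.6% lower in TPM at day 4 than at day 0, and 30.9% higher and 54.0% lower at day 7. From day 4 to day 7, 5 of the 6 rose (Bgn, Timp1, Col4a5, Col4a6 and Gpc3) and Gpc4 fell, with a median of 1.90 beside -0.50 over all genes, of which 25.5% were called higher. The rise of Timp1 was not called in summed allele-specific reads by edgeR's quasi-likelihood test, as given above. Col4a5 reached 59.9 and 61.2 TPM and Col4a6 77.3 and 79.0, each more than Bgn at day 7. The median change of the 6 was -0.12 at day 4 and -0.48 at day 7 on the log2(TPM + 1) scale, beside 0.01 and -0.37 over all genes. The mus share fell in 6 of 6 members by day 4 and by day 7, beside falls called at 87.9% and 89.8% of all genes. Bgn and Timp1 were the 2 members not called below an equal share at day 4, as 93.5% of all genes were. For Bgn, with 7 and 10 reads at day 4, a difference was hardly detectable.

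Of 6 X-linked genes that act in glycan chains or copper supply, 5 were measured. Chst7, a sulfotransferase gene of chondroitin sulfate, rose from 4.70 and 5.30 TPM at day 0 to 20.8 and 25.2 at day 4 and 33.7 and 32.1 at day 7 (log2 changes of 1.99 ± 0.10 and 2.5 ± 0.10 against day 0, adjusted p = 1.79e-06 and 2.44e-07, limma). Slc35a2, the UDP-galactose transporter gene, and Atp7a, a copper transporter that supplies lysyl oxidase, also rose by day 4, from 20.3 and 17.2 to 34.3 and 33.3 TPM and from 18.3 and 16.4 to 27.4 and 26.8 TPM. Alg13, which acts in N-glycan assembly, fell by day 7 from 168 and 166 to 30.9 and 31.1 TPM. Ids, a lysosomal enzyme gene that degrades dermatan and heparan sulfate, did not pass at 28.8 and 33.4 TPM at day 0 and 31.2 and 30.7 at day 7. Mus shares of 5 of 5 fell by day 4, beside 87.9% of all genes.

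Chromosomal neighbours did not show the mus bias of day 0. The gene nearest to Bgn in the table, Haus7, a subunit gene of the augmin complex 24.6 kb away, had a mus share of 46.6% ± 2.0 (SD, n = 2) at day 0, 17.7% ± 8.15 at day 4 and 4.02% ± 1.57 at day 7. Among the nearest 3 genes on each side, Zfp275, F8a, Dusp9, Slc6a8 and Bcap31 had day 0 means from 48.0% to 56.8%, of which the highest, F8a, had an SD of 30.5. Around Timp1, the host gene Syn1 had 38.2% ± 4.52 at day 0, below the 72.3% of Timp1, and its TPM of 44.6 and 63.8 fell to 26.9 and 25.1 at day 4 and 3.09 and 3.17 at day 7. Araf, a kinase gene 9.65 kb from Timp1, had 50.6% ± 0.658 at day 0 and 15.6% ± 0.759 at day 7. Usp11, Cdk16, Cfp, Elk1 and A230072C01Rik had day 0 means from 34.9% to 49.7%. By day 7 Bgn and Timp1 lay among their neighbours, whose means ran from 0% to 9.26% around Bgn and from 1.19% to 15.6% around Timp1, with Syn1 at 29.5% ± 28.9 of 6.5 reads.

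**Figure D5:**
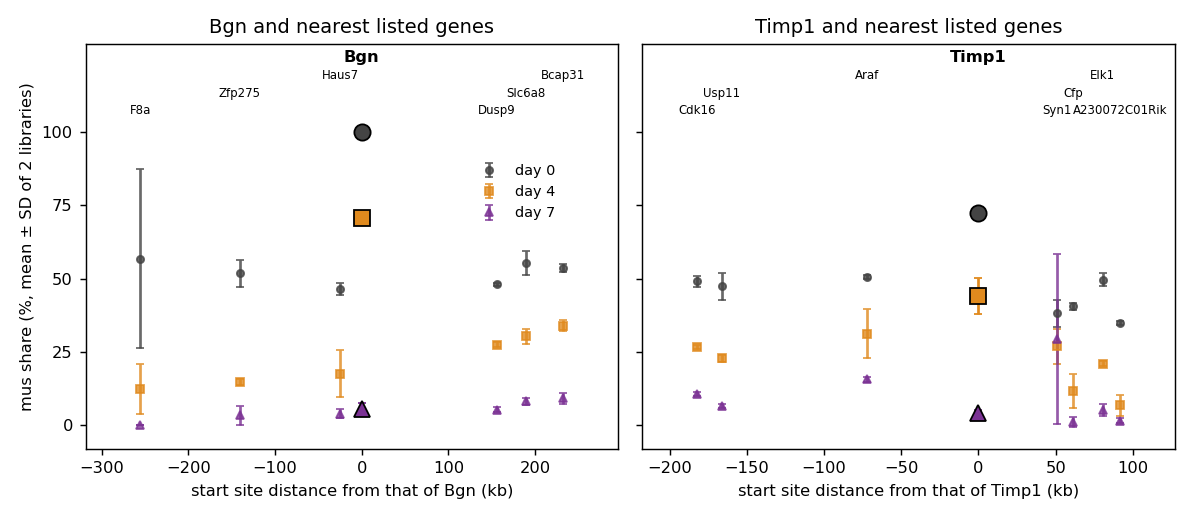
Mus share (y axis, percent, mean ± SD of 2 libraries) of the nearest measured genes around Bgn (left) and Timp1 (right) by start site distance in kb, at day 0 (circles), day 4 (squares) and day 7 (triangles); large outlined symbols at 0 kb are Bgn and Timp1. At day 0 Bgn at 99.9% and Timp1 at 72.3% lie above the means of their plotted neighbours, and at day 7 they lie among them.

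By mus share over the 6 libraries, the gene most like Bgn was Timp1, yet at a root mean square difference of 22.4 percentage points, followed by 1810030O07Rik at 27.1 and Plp2 at 27.5. The genes most like Timp1 were much closer, Atp6ap2, a subunit gene of the vacuolar proton pump, at 8.48 points and Plp2 at 9.54, then Prdx4, Pdha1 and Firre at 10.2 to 11.2. By log2(TPM + 1) centred on each gene's mean, Timp1 was most like AU015836 (root mean square difference 0.12), which had 102.7 ± 10.7, 20.5 ± 1.85 and 27.3 ± 0.717 TPM at days 0, 4 and 7. AA414768, Dusp9, Pcyt1b and Cfp followed at 0.17 to 0.38. For Bgn the nearest were Dusp9, a phosphatase gene of ERK signalling, at 1.33, then AU015836 at 1.34 and Timp1 at 1.39, with Elf4 and Esx1 at 1.41, so no measured gene was close to it. AU015836 differed from Timp1 in allele, with 31.4% and 33.9% mus reads at day 0.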

How the data were processed

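Total RNA was depleted of ribosomal RNA and made into directional libraries, per the labels' protocols. The authors deposited allele-specific reads as estimated counts in steps of 0.5 (41.4% not whole), the fraction of each allele, which equalled the recomputed share within 1e-09, and TPM. The submitters' processing notes list HOMER 4.10, Trim Galore 0.4.1, limma, edgeR and STAR, and the builds GRCm38 and mm10, without roles. Why these 372 genes were listed is not stated. Gene positions are from GENCODE M21 (GRCm38), which matched 372 of 372 symbols.

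Here, counts were rounded, and 12 columns (cas and mus of each library) were fitted by edgeR's quasi-likelihood method (4.0.16) with library terms and 1 allele term per day, without scaling between alleles. The fit had 3 residual degrees of freedom, a common dispersion of 0.00101 and infinite prior degrees of freedom, so genes share 1 spread. Total and allele TPM were tested with limma's trend method (3.58.1) on log2(TPM + 1). P-values were adjusted by Benjamini-Hochberg over all genes tested and called at 0.05. Genes needed a mean of 10 allele-specific reads and 1 TPM, which all 372 met; allele TPM needed reads in every library (357). Expression in summed reads was tested with edgeR as an alternative, and DESeq2 1.42.0 for allele share. Fits ran in R 4.3.3 and were tested on simulated data.

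Members, lists and tests were chosen with earlier results of these data known. Genes named are Bgn, Timp1, measured list members, overlapping genes, the 3 nearest measured genes on each side, and the 5 most alike in mus share and in centred log2(TPM + 1). Replicates differed in reads per gene beyond sampling noise (chi-square over its degrees of freedom, 3.97, 1.79 and 2.70 at days 0, 4 and 7), so each library counted as 1 sample. With 2 libraries against 2, an exact test of 1 value cannot reach 0.05, and a group of 2 was not searched for outlying libraries. The labels give no batch.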

Additional observations from a re-analysis of the deposited data

How the results depend on the processing

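Of 414 values under alternatives for Bgn and Timp1, 396 kept their direction and their side of the threshold. Relative to the median gene, the log2 odds at day 4 became 3.16 for Bgn and 1.66 for Timp1 (both called), those at day 7 -0.15 and -0.17 (neither called), and the Timp1 changes 0.18 at day 4, -1.66 at day 7 and -1.84 between them (none called); this setting sets the median gene to 0 by construction, and it left 151, 104 and 63 of 372 changes called over all genes in place of 330, 336 and 258, and 117 departures at day 7 in place of 345. In limma on the empirical logit, Bgn at day 4 was called with 1.12. With summed or allele reads in edgeR, the Timp1 rise from day 4 to day 7 was 0.26 (0.35 with DESeq2's size factors), its cas change -0.28 at day 4 and 0.75 at day 7, and the Bgn cas change at day 4 1.55, which was 0.12 at a pseudocount of 5; the cause was not tested. Leaving out 1 library moved the Bgn cas change at day 4 between 0.35 and 0.63 and its mus change from day 4 to day 7 between -0.09 and 0.30, with a negative sign without day 4 replicate 1 (-0.03) or day 7 replicate 2 (-0.094). Leaving out 1 library ended no other call of either gene; the Bgn odds change at day 4 then ran from -10.3 to -7.41 and at day 7 from -15.7 to -12.8. Departures from an equal share at day 0 numbered 108, but 52 in DESeq2, 10 in limma on the logit and 48 or 45 without day 0 replicate 1 or 2.

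The replicate block changed no call of Bgn or Timp1, with log2 odds changes at day 4 of -8.15 for Bgn and -1.70 for Timp1. Numbers were not shown to pair libraries: between days 0 and 4, 0 and 7, and 4 and 7, replicate differences correlated across genes at -0.10, 0.06 and -0.13 in mus odds and at -0.01, 0.13 and -0.89 in log2 TPM, whose day 7 differences are a linear function of the others. Depth limits Bgn at day 4 (7 and 10 reads) and the mus reads of Timp1 at day 7 (1 and 1.5).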
